A study of Mus musculus with 6 samples.

Results

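Collagens and the enzymes that modify them were followed in the RNA-seq of primary mouse colon tumor cells with and without the Pak inhibitor domain (PID). The members were all genes whose symbol is Col, a number, a and a number, together with the lysyl oxidases Lox and Loxl1 to Loxl4, the prolyl 4-hydroxylase alpha subunits P4ha1 to P4ha3, the lysyl hydroxylases Plod1 to Plod3, the collagen chaperone Serpinh1 and the procollagen processing genes Bmp1 and Pcolce. This rule found 58 of the 21966 genes in the table, 44 collagen genes and 14 genes for enzymes and processing, and each of them had a usable value in both conditions.

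The cells came from adenomas of mice in which Cre under the CDX2 promoter deletes 1 floxed allele of Apc, a negative regulator of Wnt signaling, in the intestinal epithelium, and were grown as primary lines. PID+ cells (CDX2;APC;PID, mice 4, 7 and 26) also carried an allele at the Rosa26 locus that expresses the PID fused to GST, with eGFP, once Cre has removed a stop cassette, whereas PID- cells (CDX2;APC, mice 1, 2 and 3) lacked it. The Cre and Apc lines were C57BL6/J, and a strain for the mice with the PID allele is not given in the sources used here. Both groups therefore shared the Apc deletion and the Cre driver, and each group was 3 primary lines, so that the effect of a line and of the genotype rest on the same few cultures. The PID is a peptide of Pak1 that blocks the kinase activity of Group I Paks. The sample labels call the PID- samples normal and untreated, although they are tumor cells without the PID, and the mouse numbers they give for PID- are not those that the study uses for its PID- lines, whereas those for PID+ are. RNA was sequenced from 3 samples per condition, but the table gives 1 pooled FPKM per gene and condition, so no value per line and no test between replicates can be given. The transgene has no row of its own, and the condition called treated was taken as PID+ from the treatments in the labels alone.

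Collagens are triple helices of alpha chains. In the endoplasmic reticulum prolines and lysines of the chains are hydroxylated, which stabilizes the helix and prepares the later crosslinks, and the chaperone Hsp47, the product of Serpinh1, binds the folded helix. Outside the cell proteinases such as Bmp1 remove the propeptides of fibrillar procollagens, and lysyl oxidases crosslink the fibrils. In the gut wall fibrillar collagens are made mainly by mesenchymal cells, whereas epithelial cells contribute chains of the basement membrane they rest on.

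Of the 58 members, 7 passed 3-fold downward in PID+ cells and 1 passed it upward, on the scale of log2((FPKM in PID+ + 1)/(FPKM in PID- + 1)). Over all 21959 genes with a usable value the shares were 1.72% lower and 1.04% higher. The lower members were Col1a1, Col1a2, Col3a1, Col6a1, Col6a3, Lox and Serpinh1, and the higher one was Col11a1. The confidence intervals deposited with the FPKM did not overlap for 3 members, Col1a2, Col6a1 and Lox, all lower in PID+ cells, against 0.542% of all genes lower and 0.187% higher by the same criterion. A 3-fold change on this scale requires that the higher of both FPKM values be 2 or more, which held for 28 members and failed for 30, so the latter could not be called in either direction. The median log2 change was -0.13 over all 58 members and 0.00 over all genes, with quartiles of -0.88 and 0.03 for the members and of -0.13 and 0.13 for all genes. Scarce genes stay near 0 on this scale. Among the 31 members whose FPKM averaged 1 or more the median was -0.68, against -0.01 over the 11480 genes that passed the same filter, which a gene can pass through its higher condition alone, so this value is given as a description.

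Most of the collagen RNA in either condition came from genes that did not pass 3-fold. Summed over the 44 collagen genes, FPKM was 222 in PID+ against 363 in PID- cells, a ratio of 0.611. Col18a1, whose product is a basement membrane collagen with heparan sulfate chains and the source of endostatin, made up 42.3% of this sum in PID+ and 41.7% in PID- cells, and without it the ratio of the sums was 0.604. By class, the sum of the 6 beaded filament collagens was 2.74 in PID+ against 24.9 in PID- cells. The sum of the 6 type IV genes was 32.3 and 90.6, and that of the 11 fibrillar collagens was 33.0 and 61.4. In the other direction, the 3 short-chain network collagens summed to 11.1 in PID+ against 4.80 in PID- cells, almost all of it from Col8a1, and the class that holds Col7a1 summed to 42.4 and 20.6. With FPKM scaled to equal Gapdh, the ratio of the sums over all collagen genes was 0.396.

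**Figure D1:**
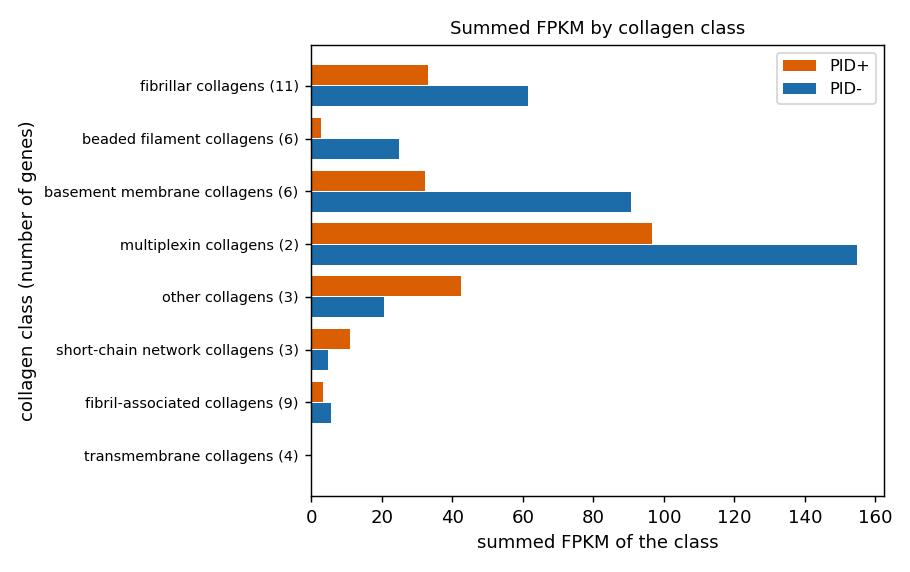
Summed FPKM of each collagen class (horizontal axis, starting at 0) in PID+ and PID- cells, with the number of genes of the class in parentheses. Each bar is the sum of 1 pooled value per gene, without an error. The multiplexin bars, 96.7 in PID+ against 155 in PID-, are nearly all Col18a1, and the transmembrane class, below 0.3 in both conditions, is too small to be seen.

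Of the 11 fibrillar collagens, 3 passed 3-fold downward in PID+ cells and 1 upward, against 1.72% and 1.04% of all genes. Col1a2 (ENSMUSG00000029661.13, chr6:4504814-4541544, plus strand, GRCm38), which encodes the alpha2 chain of type I collagen, had FPKM values of 0.0654 (deposited interval 0 to 0.242) in PID+ against 11.9 (4.07 to 19.7) in PID- cells. Its log2 change of -3.60 was the largest fall of any member, and the ratio of PID- to PID+ FPKM without a pseudocount was 182. Col1a1 (ENSMUSG00000001506.10, chr11:94936224-94953042, plus strand), the partner alpha1 chain, fell as well, from 11.9 (4.61 to 19.1) in PID- to 2.32 (0 to 4.96) in PID+ cells (log2 change -1.95) with overlapping intervals. The genes of the type I heterotrimer, which needs alpha1 and alpha2 chains, were thus at nearly the same level in PID- cells, with a Col1a1 to Col1a2 ratio of FPKM of 0.996. In PID+ cells this ratio was 35.5, so that Col1a1 RNA was still present where Col1a2 RNA was nearly absent. Since FPKM is per length of transcript, levels of different genes can be set side by side in this way.

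Col3a1 (ENSMUSG00000026043.15, chr1:45311538-45349706, plus strand), the single chain of type III collagen, which accompanies type I in distensible tissue, fell from 6.35 to 0.339 FPKM (log2 change -2.46). Its interval in PID- cells, 0 to 17.5, was wide and contained the whole PID+ interval of 0 to 1.35. Col5a2 lies next to Col3a1, on the opposite strand and tail to tail, with 24614 bases between them, and had FPKM values of 0.737 in PID+ against 3.66 in PID- cells (log2 change -1.42), short of 3-fold. Col5a2 encodes the alpha2 chain of type V collagen, which sits inside type I fibrils and sets their diameter. The alpha1 chain of the same trimer, Col5a1, was the most abundant fibrillar collagen gene in both conditions, with 22.5 (10.1 to 35.0) in PID+ against 24.7 (11.1 to 38.3) in PID- cells. On the log2 scale Col5a1 differed by -0.13, or by -0.72 with equal Gapdh FPKM, a scaling that moved the median of genes averaging FPKM 5 or more to -0.58. As a result the ratio of Col5a1 to Col5a2 was 30.6 in PID+ against 6.76 in PID- cells, and that of Col5a1 to Col1a1 was 9.70 and 2.09.

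Of the 58 members 21 had a higher and 34 a lower FPKM in PID+ cells, against 9001 and 8726 of all 21959 genes. Below FPKM 1 in both conditions were 24 of the 58. Col11a1 (ENSMUSG00000027966.16, chr3:114030540-114220718, plus strand) was the 1 member past 3-fold that was higher in PID+ cells. This alpha1 chain of type XI collagen, known from cartilage and closely related to type V, had FPKM values of 5.09 (1.22 to 8.96) in PID+ against 0.939 (0 to 2.099) in PID- cells (log2 change 1.65). The call was a near one, since 3-fold is 1.58 on this scale, the intervals overlapped, and the change was 1.57 with equal total FPKM, 1.15 with equal Gapdh FPKM and 1.40 after the median of chromosome 3 was subtracted. Col11a2, which encodes its partner chain, was at 0.505 in PID+ against 0.486 in PID- cells. Among the fibrillar genes at low level, Col27a1 was at 1.16 in PID+ against 0.253 in PID- cells, and Col5a3 at 0.0542 and 0.982.

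**Figure D2:**
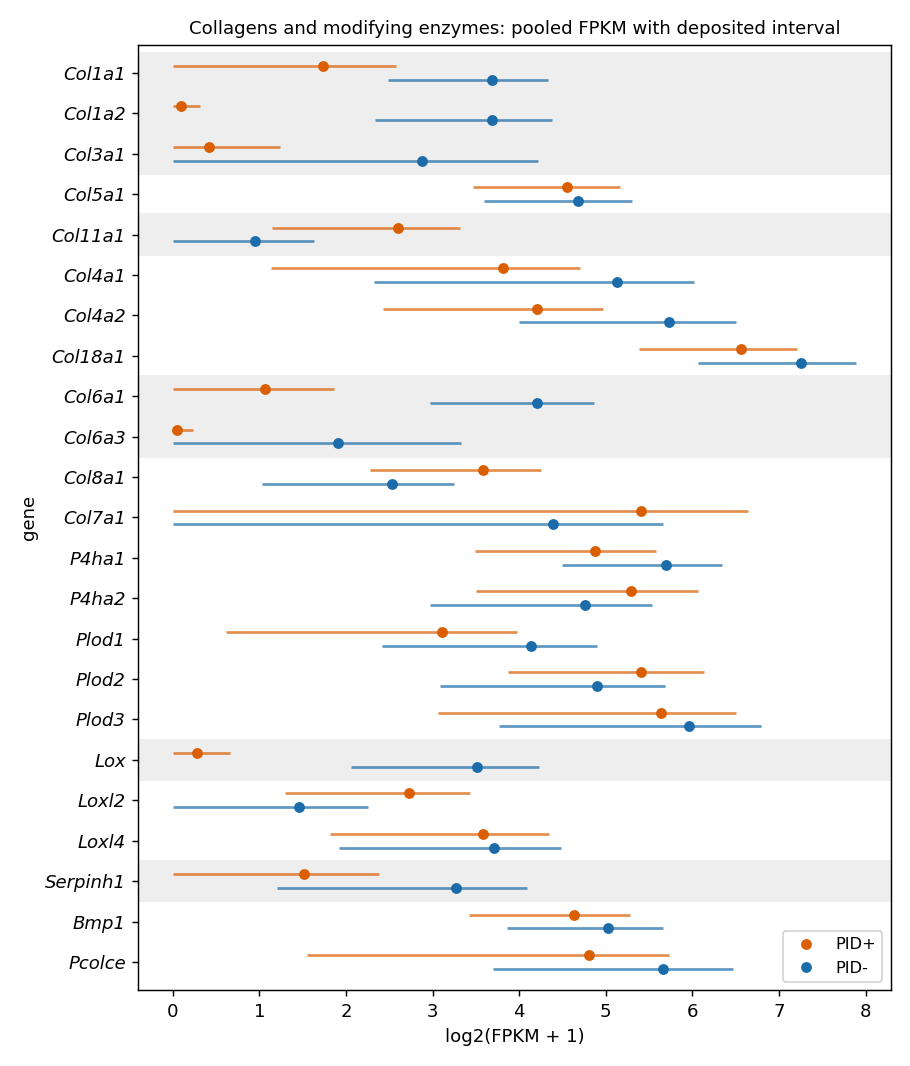
Pooled FPKM of the members that reached FPKM 5 in a condition or changed by 3-fold or more, as log2(FPKM + 1) on the horizontal axis. Points are PID+ and PID- values, lines are the deposited confidence intervals, and grey bands mark the 8 members past 3-fold, of which Col1a2, Col6a1 and Lox have intervals that do not overlap.

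Type VI collagen forms beaded filaments around cells from alpha1, alpha2 and alpha3 chains. Col6a1 (ENSMUSG00000001119.7, chr10:76708792-76726168, minus strand) fell from 17.5 (6.84 to 28.2) in PID- to 1.09 (0 to 2.63) in PID+ cells (log2 change -3.14) with separate intervals. Col6a3 (ENSMUSG00000048126.13, chr1:90765923-90843971, minus strand), which encodes the long alpha3 chain, fell from 2.77 (0 to 9.09) to 0.0349 (0 to 0.177), with a log2 change of -1.86. Col6a2 lies 85161 bases from Col6a1 on the same strand of chromosome 10 and did not reach 3-fold, with 1.60 (0 to 3.41) in PID+ against 4.59 (0.414 to 8.76) in PID- cells. By the pooled values the Col6a1 to Col6a2 ratio was 3.82 in PID- and 0.683 in PID+ cells. The intervals of these genes overlapped each other in both conditions, so which chain led is not resolved. The alternative alpha3-like chains Col6a4, Col6a5 and Col6a6, which lie beside each other on chromosome 9, were at or near 0 in both conditions, with Col6a4 listed at 0 in both.

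None of the 6 genes of type IV collagen, the network of the basement membrane, passed 3-fold on the scale used here, but 3 of them did under other settings. Its common chains were abundant, with Col4a1 at 13.1 (1.196 to 25.0) in PID+ against 33.9 (4.02 to 63.8) in PID- cells (log2 change -1.31). Col4a2 was at 17.4 (4.37 to 30.4) and 52.3 (15.0 to 89.5), and its log2 change of -1.53 was the closest to the 3-fold threshold of all members that did not pass it. With equal Gapdh FPKM the changes were -1.88 for Col4a1 and -2.12 for Col4a2, and with equal total FPKM that of Col4a2 was -1.63, all past 3-fold. Both genes start head to head on chromosome 8 (Col4a1 at 11198423 to 11312826 on the minus strand, Col4a2 at 11312805 to 11449287 on the plus strand), and their annotated first exons share 22 bases. Their ratio was nearly the same in the 2 conditions, 0.753 in PID+ against 0.649 in PID-, unlike those of the type I and type VI chains.

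The tissue-restricted type IV chains are paired in the same way. Col4a3 and Col4a4, whose starts lie 72 bases apart on chromosome 1, were both low, at 0.252 and 0.380 in PID+ and at 0.0593 and 0.137 in PID- cells. For the pair on the X chromosome, with starts 1309 bases apart, the values were unequal. Col4a5 was at 1.18 (0 to 2.86) in PID+ against 4.20 (0.665 to 7.73) in PID- cells (log2 change -1.25), and Col4a6 was at 0.0158 and 0.00820. The median log2 change of the X-linked genes whose FPKM averaged 5 or more was itself -0.45, and with it subtracted the value for Col4a5 was -0.80. The smaller pseudocount of 0.1 put Col4a5 at -1.74, past 3-fold.

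Other collagens of the epithelial basement membrane zone did not pass 3-fold. Col18a1 was at 93.8 (40.9 to 147) in PID+ against 151 (65.9 to 237) in PID- cells and ranked first among the collagen genes in both. Col7a1, which encodes the anchoring fibrils below stratified epithelia, was the collagen gene with the next highest level in PID+ cells, at 41.6 against 19.9 in PID-, but both of its intervals began at 0 and they reached 98.6 and 49.7. The ratio of Col7a1 to Col4a1 was 3.17 in PID+ against 0.587 in PID- cells. Col8a1, a short-chain network collagen, was at 10.95 (3.87 to 18.04) in PID+ against 4.77 (1.05 to 8.49) in PID- cells (log2 change 1.05), although its chromosome 16 had a median of -0.50.

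The remaining collagen genes were scarce. None of the 9 fibril-associated collagens, which decorate the surface of fibrils, reached an FPKM of 2, and the highest was Col9a3 with 1.77 in PID- cells. Col9a1 and Col19a1 were listed at 0 in both conditions. The 4 transmembrane collagens, among them Col17a1 of the hemidesmosome, stayed at or below 0.225. In all, 31 members, 28 of them collagens, were neither past 3-fold nor at an FPKM of 5 nor part of a head to head pair, and their log2 changes ran from -1.42 to 0.78.

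Of the 14 enzymes and processing genes, 11 reached FPKM 5 in a condition, as did 11 of the 44 collagen genes. In PID+ cells 2 of the 14 passed 3-fold downward and 0 upward, against 1.72% and 1.04% of all genes. Prolyl 4-hydroxylase makes the hydroxyproline that the triple helix needs, and its catalytic alpha subunits are alternatives to each other. P4ha1 was at 28.4 (10.2 to 46.7) in PID+ against 50.8 (21.5 to 80.0) in PID- cells, and P4ha2 at 38.1 (10.3 to 65.8) and 26.2 (6.81 to 45.5), so that the P4ha1 to P4ha2 ratio was 0.747 in PID+ against 1.94 in PID-. P4ha3 did not exceed 2.41 in either condition. No P4ha gene passed 3-fold, and the sums over all of them were 68.1 and 79.3. With equal Gapdh FPKM, which divides PID+ values and so this sum by 1.54, the log2 change of P4ha1 went from -0.81 to -1.41.

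Lysyl hydroxylases did not pass 3-fold. The ratio of Plod1 to Plod2 was lower in PID+ cells by the pooled values, without an error. The intervals of each of these genes overlapped between the conditions. Plod1, which hydroxylates lysines within the helix, was at 7.61 (0.532 to 14.7) in PID+ against 16.6 (4.35 to 28.9) in PID- cells (log2 change -1.03). Plod2, which acts on the telopeptides and favors stable crosslinks, was at 41.5 (13.6 to 69.4) and 28.9 (7.48 to 50.3). The Plod1 to Plod2 ratio was therefore 0.183 in PID+ against 0.575 in PID- cells. Plod3, which also glycosylates hydroxylysine, was the most abundant of the enzymes, at 48.7 in PID+ against 61.2 in PID-, and shared 11.7% of its exonic bases with Znhit1. The log2 changes of P4ha2 and Plod2, 0.52 and 0.51, turned to -0.08 and -0.10 with equal Gapdh FPKM, while the ratios within a condition do not depend on scaling.

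Of the chaperone and processing genes, Serpinh1 (ENSMUSG00000070436.8, chr7:99345376-99353239, minus strand) fell from 8.66 (1.31 to 16.0) in PID- to 1.85 (0 to 4.20) in PID+ cells (log2 change -1.76) with overlapping intervals. Bmp1, the procollagen C-proteinase, was at 23.7 (9.71 to 37.8) and 31.5 (13.5 to 49.5) in PID+ and PID- cells. Pcolce, which enhances the action of Bmp1, was at 27.1 (1.93 to 52.2) and 49.7 (11.9 to 87.5), and neither passed 3-fold.

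Lysyl oxidases crosslink collagen and elastin. Of the 5 genes, 1 passed 3-fold downward in PID+ cells and 0 upward, against 1.72% and 1.04% of all genes. Lox was among the members with the largest falls, from 10.4 (3.15 to 17.7) in PID- to 0.220 (0 to 0.582) in PID+ cells (log2 change -3.23) with separate intervals. Loxl2, whose product crosslinks type IV collagen, was at 5.64 (1.46 to 9.82) in PID+ against 1.76 (0 to 3.77) in PID- cells (log2 change 1.27), short of 3-fold on this scale and past it, at 1.63, with the pseudocount of 0.1. The Loxl2 to Lox ratio of FPKM was 25.7 in PID+ against 0.169 in PID- cells. Loxl4, at 10.95 and 12.05, had a log2 change of -0.13, or -0.69 with equal Gapdh FPKM, and was the most abundant of the family in both conditions. Loxl1 and Loxl3 stayed at or below 1.19.

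FPKM counts fragments, which are read pairs in paired-end data. How many fragments stood behind these values could be estimated from genes with 1 annotated transcript. Their low FPKM values lay near whole multiples of a step once multiplied by length. In PID+ cells 91.6% of 670 such values, and in PID- cells 91.5% of 646, lay within 0.1 of a whole fragment. The step and the length offset were chosen on the same values so that most came out whole. On this estimate, made with the longest transcript of each gene and so approximate, Col1a2 rested on 23 fragments in PID+ against 5759 in PID- cells. Lox rested on 68 and 4454, and Col6a1 on 291 and 6428. Col6a3 rested on 23 and 2571. Even so the upper bounds of the deposited intervals lay a median of 74.9% above the FPKM in PID+ and 74.0% in PID- for the 13 members whose FPKM averaged 10 or more.

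Outside the rule, the pathway of collagen folding and secretion was followed in 20 further folding and processing genes. Of these, 1 passed 3-fold downward in PID+ cells and 0 upward, against 1.72% and 1.04% of all genes. With a pseudocount of 0.1 the count was 5 downward, against 3.62% of all genes. This gene was P3h1, a prolyl 3-hydroxylase that modifies a single proline in fibrillar chains, with 1.13 (0 to 3.28) in PID+ against 10.2 (0 to 20.8) in PID- cells (log2 change -2.39). Its partners in the same complex, Crtap at 31.2 and 55.4 and Ppib at 116 and 139, did not pass. P4hb, the beta subunit of prolyl 4-hydroxylase and the most abundant of the list, was at 279 in PID+ against 276 in PID- cells. Its log2 change of 0.02 had no stable direction, with -0.08 at equal total FPKM, -0.60 at equal Gapdh FPKM and -0.02 after the median of chromosome 11 was subtracted. Pcolce2 and Creb3l1, a transcription factor that activates type I collagen genes, had log2 changes of -1.56 and -1.53, just short of 3-fold. Of the 10 collagen receptors 0 passed in either direction, against 1.72% of all genes downward and 1.04% upward. Of these receptors, 6 were below FPKM 2 in both conditions and so could not pass. The most abundant, the integrin beta1 chain Itgb1, was at 490.4 in PID+ against 703 in PID- cells. The epithelial receptors Ddr1, at 74.2 and 49.7, and Itga2, at 59.0 and 49.9, were far above Ddr2, at 0.894 and 2.13, and Itga11, at 0.00306 and 0.0616, which mesenchymal cells use.

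Markers of cell types were read beside the collagens. Of 10 fibroblast markers 3 passed 3-fold downward in PID+ cells and 0 upward, against 1.72% and 1.04% of all genes, with intervals that overlapped for each of the 3. FPKM was below the PID- value for 9 of the 10 and above it for 0, whereas of all 21959 genes 8726 were below and 9001 above, and their summed FPKM was 11.8 in PID+ against 51.2 in PID- cells. The most abundant, S100a4, which other cell types including carcinoma cells also express, fell from 37.7 to 8.62, and it shares 51.7% of its exonic bases with another gene of the table. Twist2 fell from 3.33 to 0.0882, and Dcn was at 2.39 in PID- and listed at 0 in PID+ cells. Of the other markers, Lum was listed at 0 in both conditions and Thy1 at 0 in PID+ and at 0.377 in PID-. Pdgfra was at 0.188 and 0.243, Fap at 0.0736 and 0.0918, Pdgfrb at 0.0896 and 0.987, and Fbln1 at 2.72 and 4.02. Postn, at 0.0658 and 2.09, stayed just short of 3-fold. Of 6 smooth muscle and pericyte markers 0 passed in either direction, against 1.72% of all genes downward and 1.04% upward. Of these markers, 5 were below FPKM 2 in both conditions and so could not pass. Their sum was 4.78 and 10.1, most of it from Acta2 at 4.39 and 9.76.

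Epithelial markers were abundant in both conditions, except that Vil1 was at 0.175 and 0.0614. Of these 8 genes 2 passed 3-fold upward in PID+ cells, Epcam with 401 against 124 and Cldn7 with 274 against 79.4, both with overlapping intervals, and 0 passed downward, against 1.04% of all genes upward and 1.72% downward. FPKM was above the PID- value for all 8. With equal Gapdh FPKM neither was past 3-fold, and with equal total FPKM only Cldn7 was. The list summed to 9083 in PID+ against 4957 in PID- cells, led by Krt18 with 2843 in PID+ and by Krt19 with 2073 in PID-. Equal Gapdh FPKM divides the PID+ sum by 1.54 and turned the log2 change of Krt19 from 0.25 to -0.37. Of 5 endothelial and 6 immune markers 0 passed in either direction, against the same shares of all genes. Below FPKM 2 in both conditions, and so unable to pass, were 4 of the endothelial and 5 of the immune markers. The most abundant were Kdr, at 3.33 and 1.01, and Cd68, at 21.8 and 16.8. Cd3e was listed at 0 in both conditions. FPKM was above the PID- value for all 5 endothelial markers, against 9001 of all 21959 genes. They summed to 3.77 and 1.12, most of it from Kdr, and the other 4 stayed below FPKM 1 in both conditions. Pecam1, at 0.0960 and 0.0931, and Tek, at 0.0168 and 0.0149, were nearly equal. Cdh5 was at 0.219 and 0.00279, and Emcn at 0.109 and 0. Of the 6 immune markers FPKM was above the PID- value for 4 and below for 1, with 5 of them under FPKM 1 in both conditions. With the pseudocount of 0.1 Kdr was past 3-fold upward, at 1.62. The log2 change of Cd68 turned from 0.35 to -0.24 with equal Gapdh FPKM. In pooled bulk RNA, fewer cells of a type and less RNA per cell cannot be told apart, and the part of these markers in the collagen values was not tested.

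Because 8 members moved past 3-fold, their promoters were compared. RefSeq promoter windows (GRCm38.p6) were found for 43 of the 58 members, in 46 windows, and for 6 of the 8 members past 3-fold. In the 250 bases before the start, each motif was searched on both strands. CCAAT was present in 33.8% of all 32851 windows, in 14 of the 46 windows of members and in those of Col1a2 and Col11a1. TATAAA was in 12.4% of all windows, in 6 of members and in that of Col3a1, 112 bases before the start. The GC box core GGGCGG was in 32.7% of all windows, in 29 of the 46 windows of members and in those of Col1a2, Col11a1 and Serpinh1. The E-box CACCTG, a motif bound by Snai and Zeb factors, was in 17.2% of all windows, in 5 of members and in 0 of these 6. Both the CCAAT motif and the GC box core occurred in the windows of a gene that fell, Col1a2, and of the gene that rose, Col11a1.

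The windows of these 6 genes are shown so that genes that fell can be read beside the one that rose. Each runs 5′ to 3′ on the strand of the gene, without bases in annotated exons, and capitals mark matches to any of these 4 motifs on either strand, none of which overlap. Col1a2 lies at chr6:4505370-4505492 (plus), Col3a1 at chr1:45311288-45311537 (plus), Col6a1 at chr10:76726169-76726294 (minus), Col6a3 at chr1:90843972-90844221 (minus), Serpinh1 at chr7:99353240-99353489 (minus) and Col11a1 at chr3:114030290-114030539 (plus). For Col1a2 127 and for Col6a1 124 of the 250 bases were left out because annotated exons of the same gene cover them, and the CCAAT of Col1a2, 105 bases before the RefSeq start, lies in the part left out. The GC content of the full windows was 35.2% for Col3a1 and between 56.0% and 63.6% for the others.
Col1a2: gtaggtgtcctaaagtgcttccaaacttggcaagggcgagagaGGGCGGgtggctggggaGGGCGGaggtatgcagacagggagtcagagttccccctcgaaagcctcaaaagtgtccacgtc
Col3a1: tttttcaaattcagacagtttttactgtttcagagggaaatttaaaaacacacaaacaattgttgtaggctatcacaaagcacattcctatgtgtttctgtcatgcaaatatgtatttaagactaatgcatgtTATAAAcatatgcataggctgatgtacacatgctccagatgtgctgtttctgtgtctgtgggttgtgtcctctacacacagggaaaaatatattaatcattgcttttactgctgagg
Col6a1: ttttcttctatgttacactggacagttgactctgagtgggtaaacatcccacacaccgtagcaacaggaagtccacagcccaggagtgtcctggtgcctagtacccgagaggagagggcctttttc
Col6a3: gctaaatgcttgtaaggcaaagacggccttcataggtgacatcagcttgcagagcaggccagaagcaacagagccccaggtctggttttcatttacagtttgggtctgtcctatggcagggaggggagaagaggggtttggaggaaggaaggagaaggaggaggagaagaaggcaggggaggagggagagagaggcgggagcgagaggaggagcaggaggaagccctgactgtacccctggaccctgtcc
Serpinh1: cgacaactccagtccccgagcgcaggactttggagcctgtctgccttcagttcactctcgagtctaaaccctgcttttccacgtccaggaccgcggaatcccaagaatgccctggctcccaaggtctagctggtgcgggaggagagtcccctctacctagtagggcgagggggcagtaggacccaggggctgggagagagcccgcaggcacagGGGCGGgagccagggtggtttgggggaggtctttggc
Col11a1: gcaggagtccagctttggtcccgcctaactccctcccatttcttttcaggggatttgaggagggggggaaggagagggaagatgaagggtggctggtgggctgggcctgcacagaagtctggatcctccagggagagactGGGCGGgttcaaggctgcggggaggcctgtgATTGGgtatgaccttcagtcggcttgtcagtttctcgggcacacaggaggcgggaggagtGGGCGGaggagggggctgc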

How the data were processed

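The authors deposited FPKM and confidence bounds from CuffDiff with compatible hits normalization, 1 value per gene and condition, after merging the 3 sets of reads of each condition. Poly(A) RNA was made into unstranded TruSeq libraries, so overlapping genes on opposite strands cannot be told apart. Adapters were removed with cutadapt and paired-end reads aligned with TopHat to GRCm38.p3 and protein coding genes. The release of that annotation is not stated in the sources used here, and the methods speak of replicated sequencing runs where the labels name 3 mice.

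Of 21966 genes, 7 with a status other than OK in a condition were left out. Symbols matched 21734 gene identifiers. Changes were log2((FPKM in PID+ + 1)/(FPKM in PID- + 1)), which understates changes of low genes, and called means at least 3-fold. With pooled values no test, no p-value and no analysis leaving out a sample was possible. The deposited intervals cover only the error model of CuffDiff. Positions, exons and transcript lengths came from Gencode M21 (GRCm38). Fragments were estimated as FPKM times the transcript length less 180 bases, the offset of 31 tried that left most values whole, divided by a step. The step was 0.0147 FPKM × kb in PID+ and 0.0107 in PID-.

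The members and gene lists were chosen with earlier results of these data known. Named were members that reached FPKM 5 in a condition or passed 3-fold, both genes of head to head collagen pairs, and, of the other lists, genes past 3-fold and the most abundant gene. Partner chains, values just short of 3-fold and any further names were picked once their values had been seen. Alternatives were another pseudocount, a filter on low values, scaling to equal total, upper quartile or Gapdh FPKM, chromosome medians subtracted, intervals that do not overlap and 2-fold. Calculations were tested on simulated data. Python 3.11.15, numpy 2.4.6, pandas 2.3.3 and matplotlib 3.10.9 were used.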

Additional observations from a re-analysis of the deposited data

How the results depend on the processing

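The 7 members that fell kept their direction and stayed past 3-fold under each other pseudocount, filter, scaling and chromosome setting tried, whereas Col11a1 lost its call under 3 of them. The number of members called lower was 11 with a pseudocount of 0.1, 13 at 2-fold and 3 by intervals that do not overlap, and between 7 and 10 under the other settings. The number called higher was 3, 4 and 0 under these rules, and 0 with equal total FPKM, equal Gapdh FPKM or chromosome medians subtracted. Calls over all genes moved as well, to 3.62% lower and 2.83% higher with a pseudocount of 0.1. At 2-fold they were 3.77% lower and 3.31% higher, and by intervals 0.542% and 0.187%. The shares lower were 1.85% with equal total, 1.68% with equal upper quartile and 3.01% with equal Gapdh FPKM. The shares higher were 0.879%, 1.07% and 0.346%. Subtracting chromosome medians gave 1.74% lower and 1.02% higher. Under the filter 7 of 31 members were lower and 1 higher, against 3.28% and 1.99% of 11480 genes. Each count is to be read against the share under its own setting and not against the 1.72% and 1.04% of the main one. Of the other folding and processing genes, 5 were lower with a pseudocount of 0.1, 3 at 2-fold or with equal Gapdh FPKM, 2 with equal total FPKM or chromosome medians subtracted, and 0 by intervals. Of the receptors 1 was lower with a pseudocount of 0.1 and 0 under the other settings. The median over the members was -0.68 among the 31 with a mean FPKM of at least 1, a set without the scarce genes near 0 (-0.01 over all genes so filtered), and -0.27 both with equal Gapdh FPKM and with chromosome medians subtracted. Equal Gapdh FPKM (2570 in PID+, 1666 in PID-) divides PID+ values by 1.54. It moved the median of genes averaging FPKM 5 or more to -0.58, turned 229 higher and 377 lower genes of the table into 76 and 662, and gave a ratio of 0.396 for the summed collagen FPKM. Leaving out Col18a1, chosen after seeing the data, gave 0.604. The cause of the other differences between settings was not tested. No paired analysis was possible because the table holds 1 pooled value per condition, and spread between lines limits every value here.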

Other observations

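In 17 genes of the table the FPKM lay outside its own deposited interval in a condition. No member was among them, but Mia3, which helps to load procollagen into transport vesicles, was, its values of 127 (PID+) and 129.9 (PID-) lying above upper bounds of 39.4 in both.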
